A study of Homo sapiens with 414 samples.

Results

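The nuclear genes for the subunits of oxidative phosphorylation were followed through 39 days of neural differentiation and compound exposure. Genes were taken by symbol, as those beginning NDUFA, NDUFB, NDUFC, NDUFS, NDUFV, UQCR or ATP5, or COX followed by a digit from 4 to 8, with a mean of at least 1 TPM (a relative transcript abundance that sums to the same total in each library) over all libraries. These letters gave 90 symbols, of which 85 had that mean, out of 19084 genes in the table. Of the 85 genes, 75 encode a subunit or a paralog of one (37 for complex I, 9 for complex III, 13 for complex IV and 16 for complex V), and the other 10 share only the letters. Those 10 are the complex I assembly factors NDUFAF1 to NDUFAF4 and ATP5SL, 2 readthrough transcripts, the supercomplex factor COX7A2L, ATP5S, and COX4NB, a subunit of a protein insertion complex of the endoplasmic reticulum. The 5 symbols below the mean were COX4I2, COX6A2, COX7A1, COX7B2 and COX8C, isoforms known from other tissues. COX4I2 was at 0 in 407 of 414 libraries.

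The cells, labelled H1-NPC, are neural progenitors derived from H1, an established human embryonic stem cell line, and RNA-seq libraries were made from total RNA of the cultures with the TruSeq RNA v2 kit. Each of 45 compounds was sampled once on each day it was kept, after 1, 2, 3, 4, 6, 8, 10, 15, 21, 27 or 39 days of exposure, giving 414 libraries. The labels class 29 compounds as toxic (266 libraries) and 16 as non-toxic (the remaining libraries). No label says whether the wells of a compound were separate cultures, so p-values measure the spread among these libraries. The non-toxic compounds are Ficoll 400, Fructose, Glycerol, Glyphosate, PEG 3350, Saccharin, Sorbitol, Sucrose, Glucosamine, Acetaminophen, PVP, Aspirin, Ibuprofen, Naproxen sodium, Amoxicillin and the solvent DMSO, and they were the comparison group throughout. The toxic compounds described singly below are 50 µg/ml Busulfan, 3 nM Okadaic acid, 10 µM 5-Fluorouracil, 5 µM Cytosine Beta-D-arabinofuranoside, 30 µM Lead acetate, 3 nM Dioxin, 50 µM Cadmium and 5 µM Arsenic. The other toxic ones are (trans) Retinoic acid, Accutane or Isotretinoin, Diazinon, U0126, Dexamethasone, Monosodium glutamate, PD166866, Permethrin, Hydroxyurea, Bis-I, Maneb, Vincristine, Bioallethrin, K252a, 2-Imidazolidinethione, L-phenylalanine, Amiodarone, Carbamazepine, Propylthiouracil, Benzene and Thalidomide. Toxic and non-toxic libraries carry different title series, so any batch tied to those titles cannot be told apart from class.

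Oxidative phosphorylation passes electrons from NADH through complex I and from succinate through complex II to ubiquinone, on to cytochrome c through complex III, and to oxygen at complex IV, and complex V (ATP synthase) uses the resulting proton gradient to make ATP. The redox centres and catalytic sites of complex I lie in its core subunits, while the small accessory subunits are needed for assembly and stability. In complex III the genes counted as core are UQCRC1, UQCRC2 and the iron-sulfur protein UQCRFS1, so core there does not mean a redox centre. Neurons depend on this pathway for most of their ATP, whereas proliferating progenitors rely more on glycolysis. The mitochondrial genome encodes 13 further subunits. None of these was in the table, so the balance between the 2 genomes was not analysed here. Some nuclear subunit genes, such as CYC1 and those of complex II, lie outside the symbol rule.

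Promoter sequence was available in the RefSeq table for 68 of the 85 genes, through 84 start sites. In the 250 bases before the start, the core letters of ETS factors such as GABP, CCGGAAG, were found on either strand in 18 of 84 of these promoters (21.4%), against 8.52% of 35116 promoters of all genes. Other motifs searched the same way were the palindromic core of nuclear respiratory factor 1 (2.38% against 1.03%), AAGATGGC of YY1 (2.38% against 1.36%) and ACGTG, the core letters bound by hypoxia-inducible factors (20.2% against 18.5%). The promoters of 3 of the genes called higher under toxic compounds are printed, 5′ to 3′ on the gene's strand, from RefSeq on GRCh38.p14, with these letters (or their reverse complement) in capitals: the complex III gene UQCRQ (chr5:132866392-132866641, + strand), the ATP synthase gene ATP5E (chr20:59032336-59032585, - strand) and the complex I gene NDUFA1 (chrX:119871582-119871831, + strand). A match is a stretch of letters and no evidence of binding.
UQCRQ: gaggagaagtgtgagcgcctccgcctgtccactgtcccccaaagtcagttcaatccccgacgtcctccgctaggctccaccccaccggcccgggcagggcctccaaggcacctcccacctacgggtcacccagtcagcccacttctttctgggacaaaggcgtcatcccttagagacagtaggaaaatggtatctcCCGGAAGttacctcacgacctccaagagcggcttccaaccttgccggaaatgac
ATP5E: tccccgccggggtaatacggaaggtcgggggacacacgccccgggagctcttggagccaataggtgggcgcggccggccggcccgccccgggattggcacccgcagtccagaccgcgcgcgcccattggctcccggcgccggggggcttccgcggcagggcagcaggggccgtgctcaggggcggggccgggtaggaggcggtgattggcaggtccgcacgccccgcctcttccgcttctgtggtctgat
NDUFA1: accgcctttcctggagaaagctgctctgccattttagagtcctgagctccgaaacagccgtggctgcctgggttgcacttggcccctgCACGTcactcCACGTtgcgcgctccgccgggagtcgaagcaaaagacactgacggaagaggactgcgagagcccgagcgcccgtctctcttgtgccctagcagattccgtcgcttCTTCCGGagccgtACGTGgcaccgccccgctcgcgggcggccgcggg
The ETS core lay 54 bases before the start in UQCRQ and, on the other strand, 47 bases before it in NDUFA1. ACGTG lay 34, 152 and 162 bases before the NDUFA1 start, and these matches do not overlap the ETS core. None of the 4 motifs was in the ATP5E window.

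The 85 genes were among the abundant transcripts of the cultures. Their summed level was 14922 TPM in the lowest library, 19760 TPM in the median one and 46948 TPM in the highest, or 1.49%, 1.98% and 4.69% of all TPM. The median gene had a mean of 176 TPM. By complex the median gene was at 169 TPM for complex I, 161 TPM for III, 346 TPM for IV and 295 TPM for V. COX7C, a small complex IV subunit, was highest at 1124 TPM, followed by ATP5E (929 TPM), the catalytic β subunit gene ATP5B (888 TPM) and COX6A1 (848 TPM). Values for UQCRHL (2.20 TPM), ATP5L2 (1.17 TPM) and the readthrough NDUFC2-KCTD14 (3.77 TPM) are uncertain, since reads can be shared with near-identical or overlapping genes.

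Libraries differed in how strongly transcript length entered their values, and the genes here are short, with a median transcript of 720 bases against 1832 bases for the 10173 other genes compared. For each library, how far each gene lay (log2) from the mean of non-toxic libraries of equal day was regressed on log2 transcript length, leaving out the 85 genes, and this length slope ran from -0.55 to 0.08 with a median of -0.0052. A negative slope means that short transcripts read high. It was under -0.15 in 23 libraries, of which 22 were toxic and 11 were from day 21. In 22 of these 23 the median of the 85 genes lay above the same-day mean. Depth is unknown because the values are TPM, and since TPM sums to the same total in each library, a rise of some genes lowers others. Every comparison below, except that between the retinoid isomers, shares the non-toxic libraries with the others.

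In the non-toxic cultures the gene set as a whole stayed near its starting level, while single subunits moved in both directions. From day 1 (16 libraries) to day 10 (15 libraries), 34 of 85 genes rose and 20 fell, against 35.6% and 40.4% of all 16318 genes tested (limma on log2(TPM + 1), Benjamini-Hochberg adjusted p under 0.05). The median change was 0.02 on the log2 scale, against -0.02 for all genes. In complex IV 8 of 13 genes rose and 1 fell, with a median of 0.17. Complex I had 15 of 37 higher and 9 lower, complex III 3 of 9 each way, and complex V 5 of 16 higher and 6 lower. Within complex V the F1 head and the c ring differed in count, with 4 of 5 F1 genes higher but 2 of 3 c-ring genes lower. With each library centred on the median of the genes whose mean reached 10 TPM, falls numbered 12 rather than 20. The rises stayed at 34.

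COX7A2, the isoform of subunit VIIa made outside muscle, rose most among the called genes. It was at 215.71, 246.65 and 278.64 TPM (lowest, median and highest library) on day 1 and at 381.94, 405.08 and 442.21 TPM on day 10. The ranges did not overlap, and the difference was 0.71 ± 0.06 on the log2 scale (standard error, as for every difference below; limma adjusted p = 2.16e-24). NDUFS7, the core subunit with the iron-sulfur cluster next to the ubiquinone site, went from 139.9 ± 9.80 TPM (SD, n = 16) to 207.6 ± 24.3 TPM (n = 15), a difference of 0.56 ± 0.06. ATP5D, the δ subunit of the rotor stalk, rose from 134.1 ± 9.56 to 198.7 ± 31.7 TPM, or 0.55 ± 0.08. The accessory complex I subunits NDUFA5 and NDUFB8 rose by 0.49 ± 0.05 and 0.43 ± 0.03. All of these ranges were apart between the 2 days.

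The falls by day 10 included ATP5G2, 1 of 3 genes that encode the same c subunit of the proton-driven ring. ATP5G2 stood at 655.3, 698.03 and 730.3 TPM on day 1 and at 421.53, 464.54 and 531.34 TPM on day 10, with no overlap (-0.58 ± 0.04, limma adjusted p = 6.81e-29). By day 39 it had fallen again, to 341 ± 16.9 TPM. Its paralog ATP5G3 also fell to day 10, from 131 to 116 TPM (-0.18 ± 0.03), and was at 115 TPM on day 39. ATP5G1 rose from 198 to 221 TPM by day 10 (0.16 ± 0.05) and was at 199.5 TPM on day 39 (-0.14 ± 0.05). NDUFS6, a zinc-binding accessory subunit added late in assembly, fell by 0.56 (SE 0.06) to 187.3 ± 16.6 TPM. NDUFB5, of the membrane arm, fell by 0.54 (SE 0.04) and NDUFS1, the largest core subunit, by 0.47 (SE 0.07).

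After day 10 the balance tipped downwards. From day 10 to day 39 (14 libraries), 48 of 85 genes fell and 13 rose, against 34.9% and 43.6% of all genes, and the median change was -0.15, against 0.05 for all genes. In complex V 12 of 16 genes fell, the 5 F1 genes among them, and so did 22 of 37 complex I genes, 5 of 9 of complex III and 7 of 13 of complex IV. Of 7 core complex I genes, 5 fell. Rises numbered 7 in complex I and 2 each in complexes III and IV. Centring the libraries gave 48 falls and 8 rises. The median over the subunit genes was 0.19 below day 1 on day 27. On day 8 it was 0.13 above day 1 with all 10 libraries and 0.05 above it without 1 Ibuprofen library that stands apart.

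**Figure D1:**
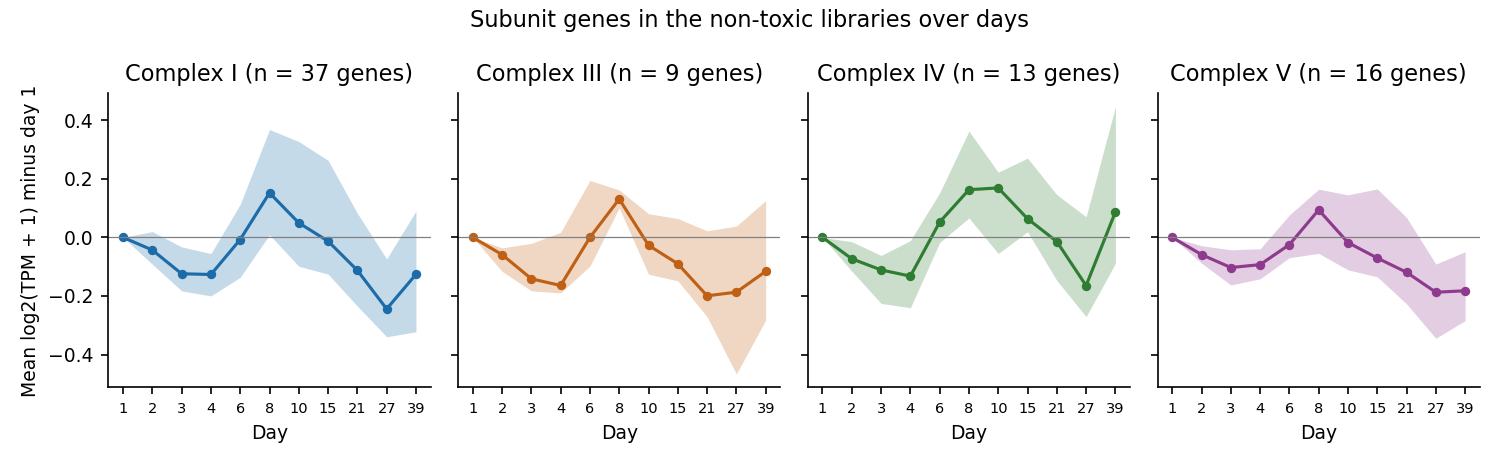
Mean log2(TPM + 1) in the non-toxic libraries minus day 1, by day of exposure, for the genes of complexes I, III, IV and V (37, 9, 13 and 16 genes). Points are the median gene and the band spans the quartiles; all 4 medians are below 0 on day 27 and above 0 on day 8, where the complex V median is 0.09 with the Ibuprofen library that stands apart and -0.01 without it.

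Of the 85 genes, 20 rose to day 10 and fell afterwards, among them NDUFB8, NDUFB11, NDUFS7, COX4I1, COX6A1, COX7A2, ATP5B, ATP5C1, ATP5D, ATP5E and ATP5G1. Another 5 fell first and rose later: NDUFB5, NDUFB6, NDUFS1, UQCRH and NDUFA4L2. Steep later falls in well-measured genes were those of ATP5SL, the assembly factor (from 91.0 ± 4.19 to 60.4 ± 3.14 TPM), and of the complex I subunits NDUFB11 (from 236.4 ± 22.5 to 157.1 ± 9.53 TPM) and NDUFS3 (from 183.8 ± 12.7 to 122.6 ± 8.13 TPM). They fell by 0.58 (SE 0.04), 0.58 (SE 0.05) and 0.58 (SE 0.05). ATP5L2 also fell by 0.63 (SE 0.19), but it was at 0 in many libraries and near 1 TPM in the rest. ATP5E, the ε subunit of the rotor, was at 807.4 ± 39.7, 892.6 ± 72.7 and 747.4 ± 38.0 TPM on days 1, 10 and 39. UQCRQ, a small subunit of complex III next to the ubiquinone sites, was at 110.4 ± 5.82, 101.3 ± 8.95 and 87.2 ± 5.81 TPM and fell in both intervals.

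The largest late rise was that of NDUFA4L2, a paralog of the complex IV subunit NDUFA4 that is known as a target of hypoxia-inducible factor. Its level in the non-toxic libraries dropped from 19.01 ± 1.71 TPM on day 1 to 3.71 ± 0.80 TPM on day 4, was 12.4 ± 2.91 TPM on day 10 and 36.5 ± 10.6 TPM on day 27, and reached 159.6 ± 16.02 TPM on day 39. The range on day 10 was 7.83 to 18.87 TPM and on day 39 it was 124.2 to 188.56 TPM. The later rise was 3.60 ± 0.11 on the log2 scale (limma adjusted p = 8.18e-66). NDUFA4 itself kept close to its start, at 173.8 ± 5.45, 176.4 ± 7.83 and 163.4 ± 6.12 TPM on days 1, 10 and 39.

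NDUFA5, an accessory subunit of the peripheral arm of complex I, rose in both intervals. It was at 94.5 ± 5.50 TPM on day 1, 133.4 ± 12.6 TPM on day 10, 281 ± 15.8 TPM on day 27 and 300.5 ± 14.1 TPM on day 39. Every day 39 library (281.48 TPM or more) lay above every day 10 library (158.03 TPM or less), a difference of 1.17 ± 0.05 (limma adjusted p = 2.85e-49). The next largest late rises were those of NDUFB5 (0.60 ± 0.04), NDUFS1 (0.35 ± 0.07) and NDUFC1 (0.24 ± 0.05), all of complex I, and the other 8 were smaller, among them COX5B (0.21 ± 0.04) and UQCRC2 (0.17 ± 0.06). NDUFB5 and NDUFS1 thereby came back to 118.4 ± 8.82 and 67.3 ± 3.44 TPM, near their day 1 values of 113.4 ± 6.96 and 73.5 ± 2.81 TPM.

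**Figure D2:**
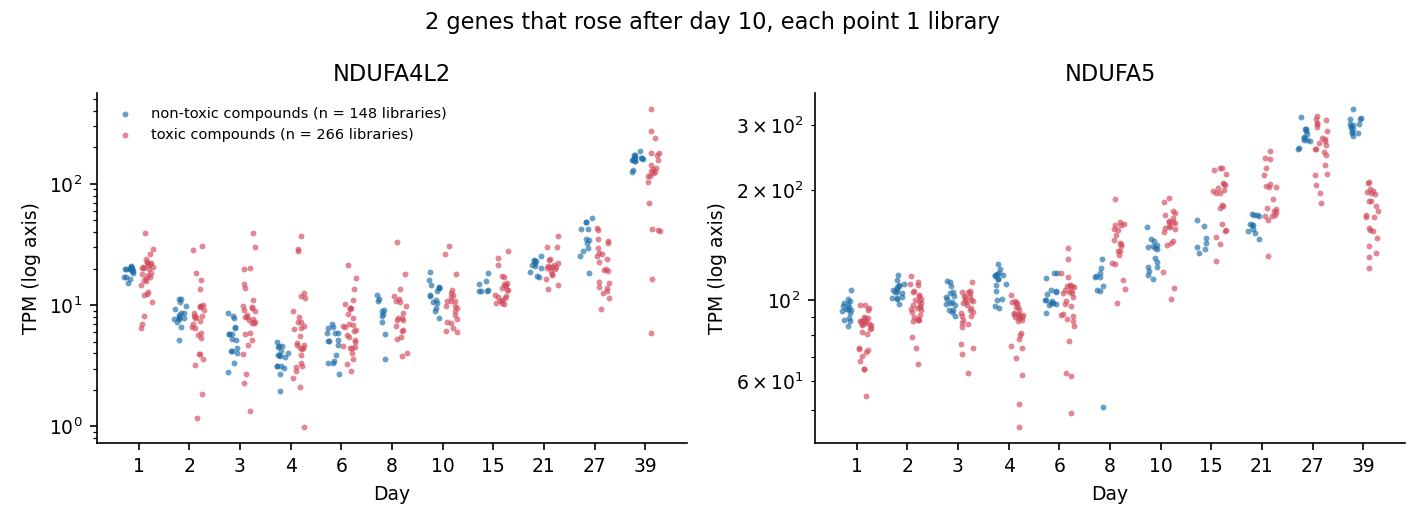
TPM (log axis) of NDUFA4L2 and NDUFA5 in single libraries by day of exposure, toxic and non-toxic shown apart. Non-toxic NDUFA4L2 reaches 124.2 to 188.56 TPM on day 39, and on that day all toxic libraries lie below all non-toxic ones for NDUFA5.

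In complex IV the COX4I and COX6B pairs were each dominated by the ubiquitous isoform. COX4I1 was at 491, 564 and 522 TPM on days 1, 10 and 39, and its counterpart COX4I2 had a mean of 0.04 TPM. COX6A1 was at 858, 965 and 831 TPM and COX8A at 629, 607 and 536 TPM. COX6B1 was at 415, 484 and 505 TPM, while COX6B2, known from testis, was at 1.37, 2.18 and 2.58 TPM. NDUFA4L2, in contrast, was near the level of its paralog NDUFA4 on day 39 (159.6 against 163.4 TPM).

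Related lists, chosen with earlier results of these data known, give the setting. The 4 complex II genes (SDHA to SDHD) all fell to day 10, and 3 rose afterwards. Of CYC1 and CYCS, which encode cytochrome c1 and cytochrome c, 1 fell to day 10, and later 1 rose and 1 fell. The ATP synthase genes USMG5, C14orf2 and ATPIF1, whose symbols lie outside the rule, all rose and then 2 of 3 fell. Of 17 assembly genes tested, 6 rose and 5 fell to day 10, then 7 rose and 5 fell. Among 13 regulators of mitochondrial biogenesis 10 fell and 2 rose to day 10 (median -0.54), and 5 rose and 6 fell later. The 12 tricarboxylic acid cycle genes split 4 up and 5 down in each interval. All 17 glycolysis and hypoxia genes rose from day 10 to day 39 (median 3.05), and their summed median went from 1335 TPM on day 1 to 1531 TPM on day 10 and 8086 TPM on day 39.

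Cell type markers moved on the same days. The 9 neuronal markers all rose to day 10 (summed median 2928 to 8618 TPM) and 5 of them fell later. The 5 markers of dividing cells fell in both intervals (1161, 205 and 108 TPM). The 7 astrocyte markers went from 163 and 332 TPM to 4690 TPM on day 39, and the 6 mesenchymal ones from 2397 TPM to 592 TPM and then 6723 TPM. Their part in the changes of the oxidative phosphorylation genes was not tested, and in bulk RNA fewer cells of a type and less RNA per cell cannot be told apart.

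Across toxic compounds, few of these genes differed in the first days, and ATP5E and UQCRQ led. With 1 value per compound (28 toxic, 16 non-toxic, mean over days 1 to 6), 6 of 85 genes were higher and 1 was lower under toxic compounds, against 0.0981% and 0.472% of all genes (limma). The median over the genes was 0.04, against -0.02 for all genes. For ATP5E the compound means were 846, 918 and 1687 TPM (lowest, median, highest) among toxic and 769, 802 and 865 TPM among non-toxic compounds. In mean log2 difference from the same-day non-toxic libraries, 25 of 28 toxic compounds lay above every non-toxic one. The class difference was 0.25 ± 0.05 (limma adjusted p = 0.00695). For UQCRQ they were 101, 111 and 173 TPM against 95.7, 99.6 and 105 TPM, with 23 of 28 above all non-toxic means and a difference of 0.17 ± 0.03 (limma adjusted p = 0.00667). Both highest means were those of Monosodium glutamate and rested on its day 1 library. There ATP5E was at 5133 TPM and UQCRQ at 463 TPM. On days 2 to 6 they were at 808 to 865 TPM and 85.8 to 114 TPM under this compound.

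The other 4 higher genes were COX7B and COX7A2, small complex IV subunits (0.19 ± 0.05 and 0.18 ± 0.04), NDUFA1, an X-linked accessory subunit of complex I (0.17 ± 0.04), and the assembly factor NDUFAF2 (0.19 ± 0.04), with limma adjusted p of 0.0484, 0.0299, 0.0371 and 0.0245. NDUFA5 was the 1 lower gene. Its compound means were 57.1, 94.0 and 104 TPM under toxic and 99.6, 102 and 111 TPM under non-toxic compounds, and 23 of 28 lay below all non-toxic means (-0.20 ± 0.05, limma adjusted p = 0.0390). With the length slope as a covariate 1 gene, UQCRQ, was called (0.14, adjusted p = 0.0492), and 24 higher and 1 lower had an unadjusted p under 0.05; ATP5E then stood at 0.13 (adjusted p = 0.0756). Without the libraries of a slope under -0.15, ATP5E and UQCRQ were called and NDUFA5 was not. When the compounds last sampled before day 8 (5-Fluorouracil, with no library between days 6 and 27, included) were left out, 30 genes were higher and 3 lower. The share of all genes in that setting is not given here, so this count is no result about these genes alone.

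**Figure D3:**
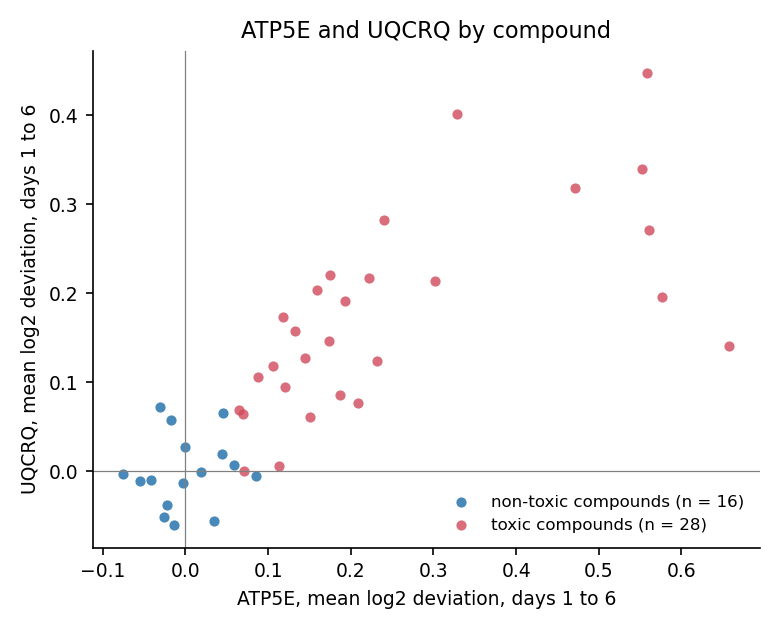
Mean log2 difference from same-day non-toxic libraries over days 1 to 6, ATP5E on the x axis and UQCRQ on the y axis; each point is 1 compound, 28 toxic and 16 non-toxic. All 28 toxic compounds lie right of 0 for ATP5E and 27 lie above 0 for UQCRQ.

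Taken compound by compound against the same-day non-toxic libraries over all their days, ATP5E was higher under 19 of 28 toxic compounds (limma), a count that 0.049% of all genes reached. It was lower under 0 of them, also at an unadjusted p under 0.05, where 22 were higher. UQCRQ was higher under 9, a count that 9.46% of genes reached. NDUFA5 was lower under 10, a count that 13.8% of genes reached for falls. Among the 16 non-toxic compounds tested in the same way, ATP5E and UQCRQ were each higher under 1, Ibuprofen, which itself gave 32 of 85 genes higher and 5 lower, against 2.38% and 29.2% of all genes. That rested on its day 8 library, where ATP5E was at 2781 TPM and the other 9 non-toxic libraries reached at most 942 TPM; without it 0 genes were higher and 0 lower (limma; 4 higher and 0 lower at an unadjusted p under 0.05). Since this library also enters the day 8 controls of the toxic compounds, their counts were taken again without it. ATP5E was then higher under 27 of 28 toxic compounds, the 1 gene of all 16318 tested to reach that count (0.00613%), UQCRQ was higher under 18 (0.294% of genes reached 18), and NDUFA5 was lower under 11.

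On days 8 to 39 (21 toxic and 12 non-toxic compounds) 10 of 85 genes were higher and 0 lower, against 5.12% and 12.5% of all genes (limma; at an unadjusted p under 0.05, 22 were higher and 4 lower). Centring the libraries gave 13 higher and 0 lower here and 10.3% and 9.66% of all genes. NDUFS6 led, with compound means of 195.7, 211.3 and 251.5 TPM under toxic and 170.2, 179.3 and 258 TPM under non-toxic compounds. Those ranges overlapped, and the difference was 0.23 ± 0.04 (limma adjusted p = 0.000258). The others were the core subunit NDUFS8 (0.17 ± 0.04), ATP5E (0.13 ± 0.04), NDUFB11 (0.13 ± 0.04), NDUFV3 (0.12 ± 0.03), UQCRC1 (0.12 ± 0.02), COX4I1 (0.10 ± 0.03), ATP5G2 (0.09 ± 0.03), NDUFB6 (0.08 ± 0.03) and NDUFA8 (0.08 ± 0.02). UQCRQ was not called (0.02, limma adjusted p = 0.81). Without the Ibuprofen day 8 library 28 were higher and 4 lower, against 6.35% and 22.8% of all genes, and the 10 genes above were again called. With the length slope as a covariate 1 was higher (NDUFS6) and 2 were lower, and without libraries of a slope under -0.15 the count was 5 higher and 0 lower. Without days 15 and 21 the count was 0 higher and 0 lower (limma; 5 higher and 6 lower at an unadjusted p under 0.05), and NDUFS8, COX4I1 and NDUFB6 then stood just below 0. Of the 17 glycolysis and hypoxia genes, 13 were lower under toxic compounds on these days.

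Day by day, the median toxic minus non-toxic difference of the 85 genes ran from -0.12 on day 8 (-0.04 without the Ibuprofen library) to 0.21 on day 21. On day 21 the median length slope of the toxic libraries was -0.19. Complete separation of the classes was rare. On day 4 every toxic library was above every non-toxic one for ATP5E (831.43 to 1382.92 TPM against 677.86 to 823.86 TPM), the 1 such gene of all tested (0.00613%). On day 39 the same held again for ATP5E alone (830.26 to 1204 TPM against 692.16 to 805.4 TPM, 0.00613%). On day 21 NDUFC2 and NDUFS6 were above throughout (0.264% of all genes) and NDUFA10 below (4.69%).

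NDUFA5 reversed its relation to class over time. Toxic medians were above non-toxic ones on day 8 (142.6 against 115.5 TPM), day 10 (159.7 against 137.6 TPM), day 15 (196.6 against 143.04 TPM) and day 21 (188.7 against 160.4 TPM). On day 27 they were close (266.9 against 278.5 TPM). On day 39 the 22 toxic libraries were at 122, 173 and 211 TPM (lowest, median, highest) and the 14 non-toxic ones at 281, 299.6 and 332 TPM, so that every toxic library lay below every non-toxic one, as for 1.21% of all genes. The mean difference on that day was -0.82. The change of this difference between days was not tested.

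Called genes were mostly higher under some of the compounds with the largest median shift of the gene set. Under Busulfan, Okadaic acid, 5-Fluorouracil, Cytosine Beta-D-arabinofuranoside, Lead acetate and Dioxin most called genes were higher. Under Cadmium and Arsenic 43 of 85 were lower, against 59.4% and 46.7% of all genes, and with centred libraries most called genes there were higher instead. These 8 were picked for the size of that median, which is therefore a description. Among the other 20 toxic compounds fitted, it ran from -0.04 (Vincristine) to 0.07 (Amiodarone). The Vincristine value includes its day 4 library, at -0.59, where the nearest of its 5 libraries was at 0.02.

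**Figure D4:**
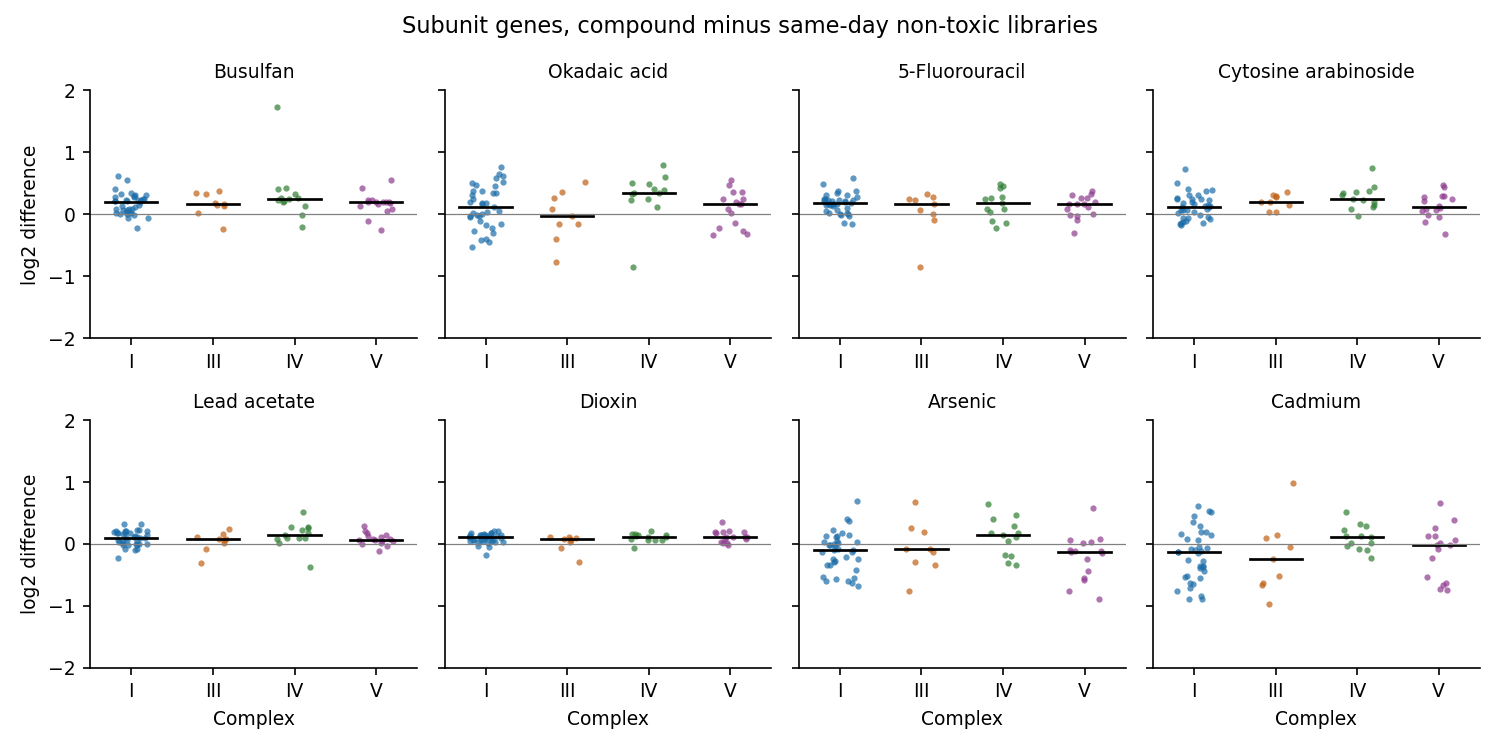
log2 difference from the same-day non-toxic libraries under the 8 compounds, 1 point per subunit gene, by complex (x axis); black bars are medians. Cytosine Beta-D-arabinofuranoside is titled cytosine arabinoside. The complex IV median stays above 0 under Cadmium (0.11) and Arsenic (0.14), where complexes I and III lie below 0 on this scale, without centring.

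Busulfan, a DNA-alkylating agent, had 5 libraries, from days 1, 2, 3, 4 and 6. Higher genes numbered 56 of 85 and lower genes 5, against 29.5% and 35.1% of all genes (limma), and the median was 0.20. All complexes took part, with 11 of 13 complex IV genes and 7 of 9 complex III genes higher. NDUFA4L2 was at 29.12, 31.02, 30.06, 27.94 and 13.64 TPM in day order. Each value exceeded the highest non-toxic library of its day (20.92, 11.26, 8.7, 4.95 and 7.05 TPM), and the difference was 1.73 ± 0.16 (limma adjusted p = 1.22e-16). NDUFA9, an accessory subunit at the joint of the 2 arms of complex I, was at 81.6, 78.18, 92.25, 87.57 and 91.63 TPM, above a non-toxic maximum of 70.78 TPM on any day (0.62 ± 0.05). ATP5E rose to 886.96, 1031.92, 1551.39, 1191.13 and 1380.88 TPM (0.55 ± 0.05). The 5 lower genes were ATP5S (-0.36 ± 0.08), ATP5G2 (-0.25 ± 0.03), NDUFA5 (-0.21 ± 0.05), ATP5SL (-0.14 ± 0.04) and ATP5A1 (-0.11 ± 0.02). The summed mesenchymal markers stood at 3677 to 11862 TPM against 473.5 to 2605 TPM in the same-day non-toxic libraries, with all 6 higher, and the 5 dividing-cell markers were all lower; their part was not tested.

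Okadaic acid, an inhibitor of protein phosphatases, also had 5 libraries on these days, with 49 genes higher and 23 lower, against 35.1% and 39.8% of all genes (limma). The complexes split: 12 of 13 complex IV genes were higher and 1 lower, but of 7 core complex I genes 4 were lower and 1 higher, and the complex III median was -0.02. NDUFAF3, an assembly factor for the membrane-anchored part of complex I, was at 95.53, 87.67, 123.09, 154.83 and 203.67 TPM, all above the non-toxic maximum of 62.67 TPM (1.27 ± 0.08, limma adjusted p = 8.08e-25). COX7B was at 465, 504.33, 504.22, 524.42 and 677 TPM, above a maximum of 377.66 TPM (0.79 ± 0.05), and NDUFA9 differed by 0.76 ± 0.07. The largest of the 23 falls were those of NDUFA4L2 (10.71, 3.92, 2.27, 0.99 and 3.58 TPM, below the lowest non-toxic library on all days but day 6), which fell by 0.84 (SE 0.14), ATP5SL, by 0.57 (SE 0.05), and the accessory subunit NDUFA6, by 0.53 (SE 0.05). At the same time 14 of 17 glycolysis and hypoxia genes were higher and 8 of 9 neuronal markers lower, and their part was not tested.

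5-Fluorouracil, an inhibitor of thymidylate synthesis, had 7 libraries (days 1, 2, 3, 4, 6, 27 and 39), with 55 genes higher and 8 lower, against 39.6% and 19.1% of all genes (limma). With centred libraries 43 were higher and 17 lower, and the shares of all genes were 27% and 27.5%. NDUFA9 was at 67.31, 74.49, 84.46, 83.36, 87.44, 95.84 and 89.47 TPM, above all non-toxic libraries of its day except on day 1 (0.59 ± 0.05), and NDUFAF2 differed by 0.51 ± 0.08. COX7A2L, which joins complexes III and IV into supercomplexes, lay below the non-toxic range from day 2 on (-0.34 ± 0.03). ATP5G2 was within the non-toxic range on day 1 (726.62 TPM) and below it afterwards, at 621.87, 553.01, 459.27, 376.22, 224 and 235.75 TPM (-0.29 ± 0.03). UQCRHL differed by -0.85 ± 0.33 but is a low, shared-read gene. The 5 dividing-cell markers and 12 of 17 glycolysis and hypoxia genes were lower; their part was not tested.

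Cytosine Beta-D-arabinofuranoside, a nucleoside analog that blocks DNA synthesis, gave 51 genes higher and 11 lower in 5 libraries, against 40.9% and 27.2% of all genes (limma). NDUFV3, a peripheral subunit next to the NADH-binding module, was at 72.15, 81.88, 87.19, 94.15 and 78.32 TPM, above the non-toxic maximum of 61.28 TPM on every day (0.73 ± 0.06, limma adjusted p = 1.64e-17). NDUFA4L2 was inside the non-toxic range on day 1 (16.72 TPM) and above it later, at 16.16, 11.04, 8.97 and 11.02 TPM (0.76 ± 0.14). ATP5SL fell by 0.38 (SE 0.04) and ATP5G2 by 0.32 (SE 0.03). ATP5G2 was also lower under Okadaic acid (-0.32 ± 0.03), Cadmium (-0.23 ± 0.03) and Arsenic (-0.59 ± 0.03). The mesenchymal sum was 3050 to 8726 TPM, above the 473.5 to 2605 TPM of the non-toxic libraries, and its part was not tested.

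Lead acetate, kept for all 11 days, gave 43 genes higher and 4 lower, against 19.6% and 22.4% of all genes (limma). NDUFS6 was at 205.17, 256.85 and 318.55 TPM (lowest, median and highest library) and exceeded the non-toxic range on days 1, 2, 4, 10, 15, 21, 27 and 39 (0.33 ± 0.06). NDUFA4L2 differed by 0.52 ± 0.14 over all days, but not in 1 direction: it was above the non-toxic range on days 2 to 15 (18.32 against at most 11.26 TPM on day 2) and below it on day 27 (15.35 against at least 18.25 TPM) and day 39 (42.09 against at least 124.2 TPM). NDUFA9 differed by 0.32 ± 0.04, NDUFA5 by -0.23 ± 0.05 and COX6B2, which is near 1 TPM, by -0.37 ± 0.12. Without the Ibuprofen day 8 library 53 were higher and 7 lower, but the shares of all genes in that setting are not given here. Of the glycolysis and hypoxia genes 13 of 17 were lower and the 6 mesenchymal markers were all higher; their part was not tested.

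Dioxin gave 19 genes higher and 0 lower over 11 libraries, against 2.95% and 13.9% of all genes (limma; at an unadjusted p under 0.05, 45 were higher and 2 lower). The 3 c-ring genes were among them. ATP5E (0.21 ± 0.06), NDUFB11 (0.21 ± 0.06) and COX4I1 (0.20 ± 0.06) led. These rested largely on days 15 and 21: NDUFB11 was at 421.23 and 352.51 TPM there, against non-toxic maxima of 231.41 and 193 TPM, and within the non-toxic range on the other 9 days. Without the Ibuprofen day 8 library 50 were higher and 2 lower, but the shares of all genes in that setting are not given here. Without the libraries of a length slope under -0.15 the count was 2, with the slope as a covariate 4 were higher and 1 lower, and with centred libraries 24 were higher while the shares of all genes were 7.78% and 7.73%.

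Cadmium lowered 43 of 85 genes and raised 24 over days 1 to 6, against 59.4% and 24.6% of all genes (limma), and the median of -0.09 compares with -0.40 for all genes. With centred libraries the all-gene median was 0.26, 65 of the 85 genes were higher and 10 lower, and 54.9% and 29.7% of all genes were called, so the direction of the set depends on the scaling. Before centring the core subunits of complex I had a median of -0.51 and the accessory ones of -0.11. Core genes of complex I were lower in 5 of 7 cases and higher in 1, and the 3 core genes of complex III and the 3 c-ring genes were all lower, while complex IV had 5 higher and 3 lower. UQCRFS1, the Rieske iron-sulfur protein of complex III, was at 60.81, 77.73, 83.61, 105.28 and 111.1 TPM, all below a non-toxic minimum of 148.6 TPM (-0.97 ± 0.05, limma adjusted p = 1.43e-30). NDUFAF1, an assembly factor, was at 8.3, 11.62, 11.45, 16.07 and 18.45 TPM, below a minimum of 22.61 TPM (-1.14 ± 0.07), and COX4NB differed by -0.97 ± 0.05.

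Against these, ATP5E under Cadmium was at 1238.87, 1332.17, 1338.85, 1298.05 and 1174.78 TPM, above every same-day non-toxic library (0.66 ± 0.04, limma adjusted p = 2.24e-27). NDUFA13, an accessory subunit of complex I also known as GRIM-19, was at 682.49 to 894.79 TPM against a non-toxic maximum of 624.34 TPM (0.61 ± 0.04). UQCRHL differed by 0.98 ± 0.36 and was not called without the day 1 library. Of 12 tricarboxylic acid cycle genes 11 were lower, and of 17 assembly genes 15. Muscle markers summed to 29.4 to 51.0 TPM against 3.17 to 9.04 TPM, and dividing-cell markers to 210 to 411 TPM against 472.5 to 1207 TPM; their part was not tested.

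Arsenic lowered 43 genes and raised 21, against 46.7% and 34.8% of all genes (limma), with a median of -0.08 against -0.11. Centred libraries gave 56 higher and 14 lower, with 51.5% and 33.4% of all genes called and an all-gene median of 0.21. Core complex I genes were lower in 6 of 7 cases, core complex III genes in 3 of 3 and complex V genes in 11 of 16, while complex IV had 7 of 13 higher and 4 lower. ATP5G1 was at 64, 81.73, 100.5, 108.69 and 109.61 TPM, all below a non-toxic minimum of 132.67 TPM (-0.89 ± 0.07, limma adjusted p = 2.96e-21). ATP5A1, the α subunit of the F1 head, was at 317.39, 454.4, 505.9, 501.72 and 503.01 TPM, below a minimum of 714.12 TPM (-0.76 ± 0.04). UQCRC1, a core protein of complex III, was at 108.15, 170.94, 207.62, 202.06 and 193.63 TPM, below a minimum of 244.89 TPM (-0.75 ± 0.06). All 3 genes were lowest on day 1.

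Also under Arsenic, NDUFA9 was at 64.96 TPM on day 1, within the non-toxic range, and at 94.54 to 103.16 TPM on the other 4 days, above it (0.70 ± 0.06). ATP5E was at 1138.97, 998.13, 1196.04, 1344.09 and 1390.55 TPM, above all same-day non-toxic libraries (0.58 ± 0.04). NDUFA4L2 differed by 0.64 ± 0.15, but by -0.20 with the length slope as a covariate (not called, limma adjusted p = 0.56). The median transcript was 930 bases for core complex I genes and 1985 bases for core complex III genes, against 720 bases for all 85, and the length slope averaged -0.12 in the Arsenic and -0.11 in the Cadmium libraries. With the slope as a covariate 8 genes under Arsenic and 10 under Cadmium were higher. The neuronal markers summed to 984 to 1799 TPM under Arsenic, below the 2811 to 7326 TPM of the non-toxic libraries, and the mesenchymal ones to 2259 to 19541 TPM against 473.5 to 2605 TPM; their part was not tested.

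NDUFA4L2 also differed under inhibitors of kinases and a steroid. Under the kinase inhibitor K252a at 30 nM, sampled on all 11 days, it was at 21.38, 30.41 and 411.74 TPM (lowest, median and highest, the last on day 39) and above the whole non-toxic range on every day but day 27 (1.42 ± 0.13, limma adjusted p = 8.69e-20; 18.7% of all genes were higher). It was lower under 10 µM U0126, a MEK inhibitor (-0.85 ± 0.13; 15.3% of all genes lower), under the glucocorticoid Dexamethasone at 100 µM (-0.60 ± 0.11; 8.68%) and under 4 µM Bis-I (-0.42 ± 0.11; 32.3%). Among the 16 non-toxic compounds it was called under 0 (limma; 1 was lower at an unadjusted p under 0.05).

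The series holds 1 pair of isomers at near equal molar dose, all-trans retinoic acid at 1.7 µM and isotretinoin, a cis isomer, at 0.5 µg/ml. Over their 11 shared days 0 of 85 genes differed between them (limma; of all genes, 0.533% were higher with the all-trans isomer and 0.527% were lower), and 5 were higher at an unadjusted p under 0.05. The median difference was 0.04 in favour of the all-trans form. For ATP5E it was 0.09, with an interval of 2 standard errors from -0.02 to 0.20, and for UQCRQ 0.15 (0.04 to 0.26, limma adjusted p = 0.25). For NDUFB6, a membrane-arm subunit, it was 0.19 (0.10 to 0.27, limma adjusted p = 0.0638). There was 1 library per isomer and day. The intervals give the uncertainty of each difference and are no limit of detection. Those of UQCRQ and NDUFB6 lay above 0, though neither gene was called.

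Across toxic compounds, the median difference of the 85 genes was set beside the mean length slope of the compound's libraries (1 value per compound, 2 relations, permutation test with 100000 resamples, two-sided). All of these values share the same non-toxic means. On days 1 to 6 (28 compounds) Pearson's r was -0.0064 (p = 0.974, adjusted 0.974) and Spearman's rho -0.027 (p = 0.894), and without Arsenic and Cadmium, the compounds farthest from the median slope, r was -0.61. With centred libraries the early r was -0.84, so the value near 0 depends on the scaling. On days 8 to 39 (21 compounds) r was -0.62 (p = 0.00301, adjusted 0.00602) and rho -0.56 (p = 0.00938, adjusted 0.0188), and r was -0.45 without Dioxin and Amiodarone. Late compounds whose libraries had a more negative slope had higher levels of these mostly short transcripts. Of the 85 genes, 72 are shorter than the median of 1832 bases of the genes behind the slope. A negative r therefore follows in part from how the slope is defined. ATP5E, with an annotated length of 1878 bases, is not among the 72. Which transcript form of a gene the cultures expressed is not known, so the place of ATP5E by length is uncertain.

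**Figure D5:**
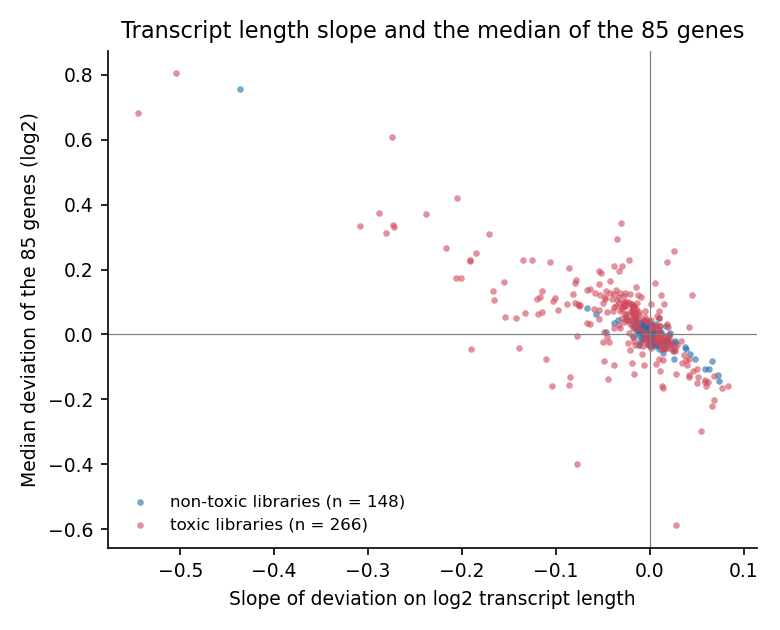
Median log2 difference of the 85 genes from same-day non-toxic libraries (y axis) against the transcript length slope (x axis), 1 point per library, toxic (266) and non-toxic shown apart. Of the 23 libraries with a slope under -0.15, 22 lie above 0.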

How the data were processed

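RNA-seq of 414 libraries was read from 1 table of TPM that the authors deposited; per the submitters' processing notes CASAVA 1.8.2, Bowtie 0.12.8, RSEM 1.2.1 and hg19 were used, with no order or settings given. Each column sums to the same total, so depth is unknown and counting intervals cannot be given. The test took the 16318 genes that reached 1 TPM in 5 or more libraries, on log2(TPM + 1), which understates changes of low genes, with limma 3.58.1 in R 4.3.3 (moderated test with a trend, two-sided, Benjamini-Hochberg over all tested genes, called at an adjusted p under 0.05). Time was fitted on non-toxic libraries. Class used 1 mean deviation per compound with at least 3 libraries in the window. Single compounds (at least 5 libraries) had a term for each day, and libraries of 1 compound were blocked (correlation 0.0212). Maneb, with 1 library, was not fitted. Length slopes used the 10173 genes whose mean reached 10 TPM and that have a RefSeq length.

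Named genes are ATP5E and UQCRQ, the paralog pairs, the 5 largest called changes each way over time, the called genes by class up to 10, and the 3 largest called changes each way under the 8 toxic compounds of largest absolute median. NDUFA4L2 under other compounds, NDUFA1's promoter and the genes apart by class on single days were chosen after their values were seen. A result that this rule selects is not reported here. The genes and lists were chosen with earlier results of these data known. The fits were tested on simulated data. Alternatives were other pseudocounts, no filter, centred libraries, a slope covariate and left-out libraries, and those with the Ibuprofen day 8 library were added after seeing the data.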

Additional observations from a re-analysis of the deposited data

Results flagged for a closer look

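Within groups of 4 to 10 libraries, 30 tests looked for a single library far from the others, and 8 found one. These tests overlap, and several found the same Ibuprofen library of day 8. The count therefore cannot be set against a chance rate. Compounds with more than 10 libraries were not tested as a group, Monosodium glutamate among them.

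Ibuprofen on day 8 stood apart from the other non-toxic libraries of that day. The median deviation of the 85 genes from the same-day mean was 0.75 (next library 0.03), ATP5E was at 2781 TPM (next 942 TPM), UQCRQ at 322 TPM (next 129 TPM) and NDUFA5 at 50.97 TPM (next 106 TPM). Within the 10 Ibuprofen libraries the same value of 0.75 was far from the next, 0.04. It was the 1 non-toxic library with a length slope under -0.15, and it is 1 of the 10 in the day 8 non-toxic mean. On that day Glucosamine (-0.11, next -0.04) and Naproxen sodium (-0.075, next -0.025) were low within their own libraries. Both were measured against the day 8 mean that the Ibuprofen library enters. With that library the median subunit gene was 0.13 above day 1 on day 8, and without it 0.05. How far Glucosamine and Naproxen sodium lie without it was not tested.

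Vincristine on day 4 had a median deviation of -0.59, where the nearest of its 5 libraries was at 0.02. It listed 17188 genes at 1 TPM or more, and no other library listed more than 14633. It is also the library in which COX4I2 was highest, at 13.12 TPM.

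Maneb at 60 µM has 1 library, on day 1, which no comparison of single compounds uses. The median deviation of the 85 genes there was 0.68, above the highest non-toxic library of that day (0.03), with ATP5E at 2756.61 TPM and UQCRQ at 302.54 TPM.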

How the results depend on the processing

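Of 722 values of single named genes under the alternatives, 664 kept their direction and call, 52 kept the direction but lost the call and 6 changed sign. For the main counts and correlations 189 of 234 values stayed within 1.5 times or on the same side of the threshold, and the others follow. Where no share of all genes is given, here or above, a change in these genes and one in all genes cannot be told apart.

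Centring each library on its median gave 12 lower (day 10), 8 higher (day 39), 15 higher (class, days 1 to 6), 17 lower (5-Fluorouracil), 65 higher and 10 lower (Cadmium) and 56 higher and 14 lower (Arsenic). That median is over the genes whose mean reached 10 TPM, and the shift it sets applies to all genes, those near 0 too. Centring moved the median of all genes by over 0.1 under Cadmium and Arsenic.

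With the length slope as a covariate the counts, higher then lower, were 1 and 0 (class, days 1 to 6), 1 and 2 (days 8 to 39), 29 and 8 (Busulfan), 4 and 1 (Dioxin) and 0 and 0 (Ibuprofen), with 31 higher under Okadaic acid, 10 under Cadmium, 8 under Arsenic and 1 in the retinoid pair, and 14 lower under Lead acetate. COX4I1 changed sign in the late class comparison (-0.0083), NDUFC2-KCTD14 under Okadaic acid (-0.037) and NDUFA4L2 under Arsenic (-0.20).

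Without libraries of a slope under -0.15 the counts were 2 and 0 (days 1 to 6), 5 higher (days 8 to 39), 7 lower (Lead acetate) and 2 higher (Dioxin). Without days 15 and 21 the late class comparison gave 0 higher, and NDUFS8 (-0.011), COX4I1 (-0.0197) and NDUFB6 (-0.013) changed sign. Without the Ibuprofen day 8 library it gave 28 and 4, Lead acetate 7 lower, Dioxin 50 and 2, and Ibuprofen 0 and 0. On days 1 to 6 a trend on the fitted values gave 2 and 0, and leaving out compounds with no library on days 8 to 21 gave 30 and 3. A pseudocount of 5 gave 2 lower on days 8 to 39 and an early r of 0.0228, while centring gave an early r of -0.84. Dioxin without the compound block had 34 and 1. The cause was not tested.

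Leaving out 1 of the 5 libraries gave 47 to 58 higher and 4 to 7 lower for Busulfan, 45 to 48 and 20 to 22 for Okadaic acid, 48 to 55 and 8 to 11 for Cytosine Beta-D-arabinofuranoside, 20 to 25 and 40 to 43 for Cadmium and 19 to 27 and 32 to 43 for Arsenic. NDUFA5 under Busulfan was not called without day 4 nor UQCRHL under Cadmium without day 1.

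With the compound number of the titles as a block 34 rose and 21 fell to day 10, and 13 rose and 49 fell afterwards. Same-numbered libraries are of the same compound on different days. They did not deviate together (r from -0.085 to 0.103 over 15 pairs and from -0.057 to 0.154 over 14, 1 pair over 0.1 in each). Depth limits low genes such as ATP5L2, COX6B2 and UQCRHL, whose TPM steps cannot be turned into reads.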
